A study of Homo sapiens with 24 samples.

Results

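The ribosome biogenesis and RNA polymerase I genes described here are 40 genes that make or mature ribosomal RNA and assemble the ribosomal subunits. They were taken from a list of symbols chosen with earlier results of these data known. Each was represented by its probe set (a group of array oligonucleotides that reads 1 transcript) with the highest mean over all 24 arrays. Only probe sets annotated to that gene alone were counted. Of the 40 genes, 35 had such a probe set, and all 35 passed the filter on dim genes, among 19775 genes with a probe set and 14335 tested. NOP56, DKC1, BOP1 and PPAN had only probe sets shared with other symbols, and GNL3 had none under its name in the annotation used, so these 5 are not analysed here.

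The cells were BT-474, an established human breast cancer line with an amplified ERBB2 gene (the gene of the receptor tyrosine kinase HER2) and an estrogen receptor. The cells received HER2 siRNA or control siRNA, and each of these was combined with 10 nM estrogen or with its vehicle, 0.001% ethanol, for 4 h or 24 h. Each of the 8 combinations was measured on 3 Affymetrix HG-U133 Plus 2.0 arrays, so the control groups too carried an siRNA and the vehicle. All values come from 1 cell line, and the siRNA sequences and the time from transfection to treatment are not given in the sources used here. Levels and differences are log2 values, each difference is followed by its standard error (±), and a gene is called when its adjusted p in limma is under 0.05. The labels do not say whether arrays of a group came from separate cultures, so each p-value covers the spread of these arrays alone, which may be technical. For the third array of HER2 siRNA with estrogen at 4 h one label field gives 24 h and the other fields 4 h. It was kept at 4 h, and without it 22 genes fell and 3 rose in the averaged siRNA comparison and 3 rose with estrogen at 4 h with HER2 siRNA.

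A ribosome begins in the nucleolus, where RNA polymerase I transcribes the ribosomal DNA into 1 long precursor. Small nucleolar ribonucleoproteins (snoRNPs) then methylate or pseudouridylate that RNA, and a series of processing complexes cuts it and builds the small and large subunits around it. The pathway is known to run high in dividing tumour cells and to respond to growth factor receptors and to the transcription factor MYC.

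ERBB2, the targeted gene, checked the labels. It fell by 1.34 ± 0.06 after HER2 siRNA averaged over the 4 conditions, to 39.6% of the control level. No array overlapped, since HER2 siRNA arrays reached 12.69 at most and control siRNA arrays 13.39 at least. The arrays' medians lay between 5.28 and 5.36, and r within groups was 0.991 to 0.997. All 8 luminal breast markers were tested, with mean levels from 9.01 (ESR1) to 13.42 (KRT18). Of 14 fibroblast, leukocyte and endothelial markers with a probe set, COL3A1, LUM, PDGFRB, PTPRC, CD14, CDH5 and KDR were below the filter. The summed log2 level of all 14 markers was 10.00 to 10.49 with control siRNA and 10.13 to 10.56 with HER2 siRNA. LYZ and COL1A1 among them rose after HER2 siRNA (1.08 ± 0.17 and 0.35 ± 0.07) and VWF fell by 0.32 ± 0.07, and the part of such cells in the results was not tested. In RNA from whole cultures, fewer cells of a type and less RNA per cell cannot be told apart.

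Promoters of 6 of the genes are shown as examples, and they do not cover all the responses described below. All but NOP16 hold the motif marked in capitals, a larger share than the 15 of 28 genes counted below. LYAR, DDX21, MRTO4 and NOP14 fell after HER2 siRNA and rose with estrogen, NOP16 did likewise, and NOP10 rose after HER2 siRNA. Each run covers 180 bases before the transcription start and the first 30 bases from it, 5′ to 3′ on the gene's strand, from RefSeq on GRCh38.p14. Capitals mark CACGTG, the E-box bound by MYC and MAX, which reads the same on both strands.
LYAR, chr4:4289992-4290201, minus strand: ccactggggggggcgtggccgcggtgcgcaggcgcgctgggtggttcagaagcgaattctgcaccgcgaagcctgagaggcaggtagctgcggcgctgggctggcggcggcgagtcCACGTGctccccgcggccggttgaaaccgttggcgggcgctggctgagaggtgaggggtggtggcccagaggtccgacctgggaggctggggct
DDX21, chr10:68956467-68956676, plus strand: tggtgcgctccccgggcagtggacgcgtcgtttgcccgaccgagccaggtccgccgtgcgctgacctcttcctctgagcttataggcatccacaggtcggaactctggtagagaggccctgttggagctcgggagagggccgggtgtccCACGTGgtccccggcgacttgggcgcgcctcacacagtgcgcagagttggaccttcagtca
MRTO4, chr1:19251625-19251834, plus strand: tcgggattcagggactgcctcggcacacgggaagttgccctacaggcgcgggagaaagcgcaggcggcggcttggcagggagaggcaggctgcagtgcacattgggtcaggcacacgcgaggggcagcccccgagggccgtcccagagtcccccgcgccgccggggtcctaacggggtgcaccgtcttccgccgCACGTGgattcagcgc
NOP14, chr4:2963377-2963586, minus strand: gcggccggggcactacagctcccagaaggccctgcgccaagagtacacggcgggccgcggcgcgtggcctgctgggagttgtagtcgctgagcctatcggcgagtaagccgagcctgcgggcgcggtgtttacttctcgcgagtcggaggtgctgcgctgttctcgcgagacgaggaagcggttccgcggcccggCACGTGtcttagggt
NOP10, chr15:34343107-34343316, minus strand: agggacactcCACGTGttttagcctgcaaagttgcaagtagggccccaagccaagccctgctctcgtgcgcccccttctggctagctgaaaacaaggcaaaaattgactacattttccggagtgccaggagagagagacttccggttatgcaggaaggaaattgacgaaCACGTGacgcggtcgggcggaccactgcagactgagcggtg
NOP16, chr5:176388569-176388778, minus strand: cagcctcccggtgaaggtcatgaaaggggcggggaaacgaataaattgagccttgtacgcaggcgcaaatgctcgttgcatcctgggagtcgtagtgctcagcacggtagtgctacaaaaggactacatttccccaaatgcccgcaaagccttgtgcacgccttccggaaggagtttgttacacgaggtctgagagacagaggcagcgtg

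Counting the first transcribed base as +1, the E-box began at -64 in LYAR, at -31 in DDX21, at +15 in MRTO4, at +16 in NOP14, and at -170 and -11 in NOP10. The NOP16 window holds none. LYAR and DDX21 each have 2 starts in the RefSeq table, and the start with the E-box is the one shown. Over the full windows of 300 bases (250 before the start and 50 from it), 28 of the 35 genes had an entry. Of these 28, 15 (53.6%) held CACGTG in at least 1 window: BYSL, DDX21, FBL, GAR1, IMP4, LYAR, MRTO4, NOP10, NOP14, NOP2, PES1, PWP2, RCL1, RRP9 and WDR43. Of 11448 tested genes with an entry 12.3% held it, and of all 35116 windows 7.26% did, a share counted per window and not per gene. Among other ribosome biogenesis genes, a separate list described below, 27 of 89 with an entry (30.3%) held it. Among cytosolic ribosomal proteins 3 of 47 (6.38%) did. The E-box was thus more frequent than among all tested genes in that separate list too. That list was also chosen with earlier results of these data known, and genes with more than 1 start had more windows to hold it. The difference in shares was not tested. The full palindromic estrogen response element (both consensus arms without a mismatch, any 3 bases between them), searched on both strands, was in the window of 0 of the 28 genes and in 20 of all 35116 windows. These matches describe letters in a window, and binding was not measured here. The 15 genes with an E-box include genes that moved in opposite directions after HER2 siRNA (LYAR and NOP10) and 2 that were called in no comparison (PES1 and PWP2).

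HER2 siRNA lowered most of these genes. Averaged over the 4 conditions 24 of 35 fell and 4 rose, with a median difference of -0.22. Among all genes tested 29.1% fell and 30.1% rose, with a median difference of 0.00. The 10 largest falls were in LYAR (-0.73 ± 0.07), NOP16 (-0.59 ± 0.04), RRS1 (-0.59 ± 0.05), POLR1A (-0.59 ± 0.04), NOP2 (-0.49 ± 0.05), NOP58 (-0.44 ± 0.04), URB2 (-0.43 ± 0.05), MRTO4 (-0.43 ± 0.05), NOLC1 (-0.42 ± 0.04) and DDX21 (-0.41 ± 0.04). The genes that rose were HEATR1 (0.30 ± 0.04), NOP10 (0.27 ± 0.04), TBL3 (0.21 ± 0.05) and NPM1 (0.08 ± 0.03). FBL, NHP2, POLR1C, POLR1E, RCL1, PWP2 and PES1 did not pass the test, and their differences lay between -0.06 and 0.07.

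The effect was present in each of the 4 conditions taken alone. With vehicle at 4 h 12 fell and 1 rose, where 17.8% of all genes fell and 16.5% rose. With vehicle at 24 h 16 fell and 3 rose, against 21.8% and 19.7% of all genes. With estrogen at 4 h 16 fell and 2 rose, against 17.3% and 16.8%. With estrogen at 24 h 19 fell and 1 rose, against 20.5% and 21.5%. NOP58, POLR1A, NOP14, BYSL, NOP16, RRS1, NOP2, NOLC1, DDX21 and LYAR fell in all 4. In a fit of only the 2 groups compared, the calls of NOP14, BYSL, NOP2 and DDX21 with vehicle at 4 h were lost. The NOP14 call there was also lost on leaving out any of 5 arrays. The BYSL call with vehicle at 24 h was lost on leaving out either of 2 arrays.

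The 3′ minus 5′ difference of the GAPDH control probe sets, a measure of how complete the labelled RNA was, moved with the siRNA. Its mean was 0.443 ± 0.060 (SD, n = 12) in arrays of HER2 siRNA, against 0.305 ± 0.066 (SD, n = 12) in those of control siRNA. With the GAPDH difference as a covariate 18 genes fell and 2 rose in the averaged comparison, and the 8 calls lost were those of GAR1, NIP7, RRP12, RRP1B, WDR12, WDR43, TBL3 and NPM1. In single conditions it ended 2 siRNA calls with vehicle at 4 h (NOP14 and RRP12) and 3 with vehicle at 24 h (NIP7, WDR3 and WDR43). With estrogen it ended 5 at 4 h (NOP10, NOP14, POLR1B, RRP12 and WDR12) and 5 at 24 h (NIP7, RRP1B, WDR12, WDR3 and WDR43). NOP14 was thus no longer called at 4 h in either treatment.

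Estrogen raised these genes, and none fell with it in any of the 4 comparisons with vehicle (limma). Of the 35, 31 had a positive difference in all 4. With control siRNA 8 of 35 rose at 4 h, where 0.335% of all genes rose and 0.00698% fell. At 24 h 26 of 35 rose, where 7.01% of all genes rose and 6.52% fell, and the median difference of the 35 was 0.43 against -0.01 for all genes. With HER2 siRNA 4 rose at 4 h, where 0.663% of all genes rose and 0.0349% fell, and 22 rose at 24 h, where 4.28% rose and 1.90% fell. All 22 were also among the 26 that rose at 24 h with control siRNA. The 8 that rose at 4 h with control siRNA were LYAR (0.68 ± 0.14), NOP16 (0.65 ± 0.09), POLR1B (0.63 ± 0.11), RRS1 (0.54 ± 0.09), BYSL (0.54 ± 0.09), WDR3 (0.42 ± 0.08), DDX21 (0.40 ± 0.07) and POLR1C (0.40 ± 0.08). The 10 largest rises at 24 h with control siRNA were in LYAR (0.81 ± 0.14), NOP16 (0.78 ± 0.09), POLR1B (0.76 ± 0.11), NOLC1 (0.73 ± 0.08), RRS1 (0.72 ± 0.09), DDX21 (0.65 ± 0.07), BYSL (0.65 ± 0.09), MRTO4 (0.65 ± 0.10), WDR12 (0.63 ± 0.08) and URB2 (0.61 ± 0.11). BYSL, NOP16 and RRS1 rose in all 4 estrogen comparisons. Without the third control siRNA vehicle array at 4 h, the 8 that rose at 4 h became 3, and in a fit of only the 2 groups compared they were also 3. Leaving out single arrays ended the 4 h calls of LYAR and POLR1C (5 arrays each), WDR3 (4 arrays), and POLR1B and DDX21 (2 arrays each), and those of NOP16, RRS1 and BYSL held without each array in turn. The 4 that rose at 4 h with HER2 siRNA became 0 in a fit of only those 2 groups. Among them the BYSL call was also lost without the third HER2 siRNA vehicle array. With all probe sets of NOP16 averaged, dim ones included, its 4 h calls were lost with both siRNAs.

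**Figure D1:**
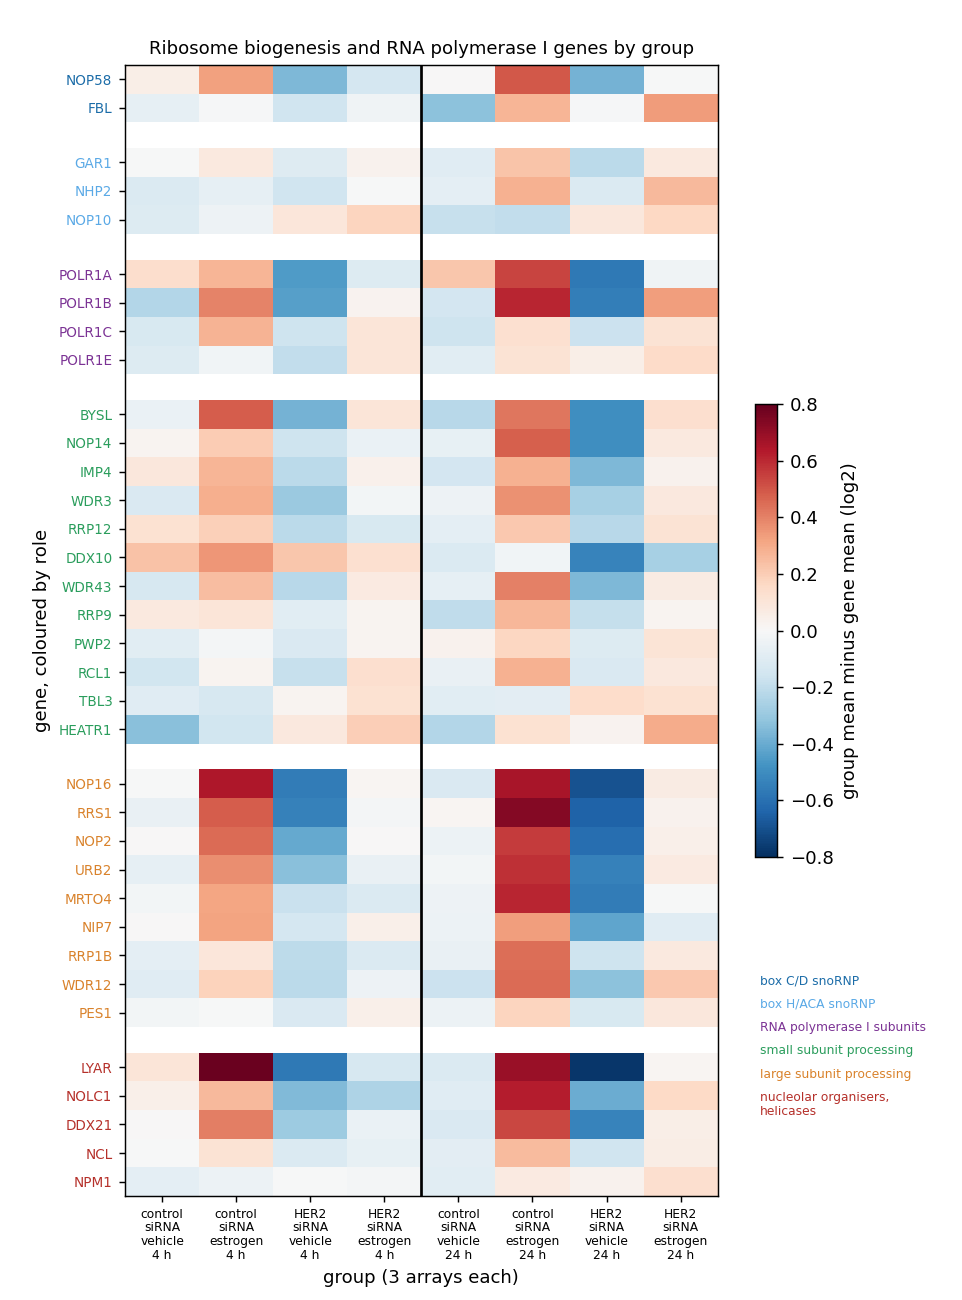
Group means of the 35 genes on a colour scale, each as its difference from the gene's own mean over the 8 groups (log2), with genes ordered by role and groups of 3 arrays in columns. Control siRNA with estrogen holds the highest values of most rows and HER2 siRNA with vehicle the lowest, while HEATR1, NOP10 and TBL3 are higher in the HER2 siRNA columns.

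RNA polymerase I itself was represented by 4 subunits, and 2 of them, POLR1A and POLR1B, fell in the averaged siRNA comparison. POLR1A encodes the largest subunit and POLR1B the second largest, and together they form the catalytic centre. The POLR1B fall (-0.31) was called in 2 of the 4 conditions. No other POLR1B probe set was called lower and 1 was called higher (0.30). With its 4 probe sets averaged the call was lost (limma, adjusted p = 0.40). POLR1A with vehicle stood at 7.98, 8.10 and 8.06 with control siRNA and at 7.48, 7.45 and 7.43 with HER2 siRNA at 4 h. At 24 h with vehicle it stood at 8.01, 8.19 and 8.18 against 7.30, 7.39 and 7.33. The groups did not overlap at either time, and the difference was -0.59 ± 0.08 at 4 h and -0.79 ± 0.08 at 24 h (adjusted p = 8.55e-08).

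POLR1A with estrogen at 24 h reached 8.41, 8.42 and 8.53 with control siRNA and 7.66, 8.002 and 7.97 with HER2 siRNA. Every HER2 siRNA array with estrogen thus stayed below every control siRNA array, with estrogen or without, at that time, by a narrow margin against vehicle. The rise of POLR1A with estrogen was 0.32 ± 0.08 with control siRNA and 0.54 ± 0.08 with HER2 siRNA at 24 h. The call with control siRNA was lost with probe sets averaged and on leaving out either of 2 arrays. It was also lost without the 3 arrays whose labels carry numbers apart from the rest. Other tested POLR1A probe sets were not called at 24 h, with 0.10 to 0.12 with control siRNA and 0.20 to 0.21 with HER2 siRNA. At 4 h it was 0.34 ± 0.08 with HER2 siRNA (adjusted p = 0.04996, lost on leaving out any of 6 arrays), and with control siRNA the difference was 0.13 (95% interval -0.03 to 0.30).

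POLR1B with control siRNA at 24 h stood at 8.75, 8.65 and 8.63 with vehicle and at 9.37, 9.48 and 9.47 with estrogen. With HER2 siRNA it stood at 8.25, 8.15 and 8.41 with vehicle and at 9.02, 9.10 and 9.37 with estrogen. The vehicle and estrogen arrays did not overlap with either siRNA. The rise was 0.76 ± 0.11 (adjusted p = 8.49e-05) with control siRNA and 0.89 ± 0.11 (adjusted p = 1.53e-05) with HER2 siRNA, the largest of the 35 genes there.

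POLR1C, a subunit shared with RNA polymerase III, rose with estrogen at 24 h with both siRNAs (0.29 ± 0.08 in each) and its averaged siRNA difference was -0.06 (95% interval -0.14 to 0.03). Each of its estrogen calls at 24 h was lost on leaving out any of 4 arrays. POLR1E, a subunit needed for initiation, was dim and was called in none of the siRNA or estrogen comparisons. Its level was 6.16 to 6.51 as a group mean, its averaged siRNA difference was 0.06 (95% interval -0.07 to 0.19), and its estrogen difference at 24 h with control siRNA was 0.21 (95% interval -0.05 to 0.47).

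The box C/D snoRNP, which 2′-O-methylates ribosomal RNA, was read through its core protein NOP58 and its methyltransferase FBL (fibrillarin), and they differed. NOP58 with vehicle at 4 h stood at 11.02, 10.79 and 10.83 with control siRNA and at 10.61, 10.40 and 10.38 with HER2 siRNA. At 24 h it stood at 10.92, 10.80 and 10.79 against 10.48, 10.40 and 10.48. The HER2 siRNA arrays were lower at both times without overlap (-0.41 ± 0.08 and -0.38 ± 0.08). NOP58 rose with estrogen at 24 h by 0.49 ± 0.08 with control siRNA and by 0.37 ± 0.08 with HER2 siRNA.

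FBL with control siRNA at 4 h stood at 10.54, 10.61 and 10.54 with vehicle and at 10.62, 10.62 and 10.65 with estrogen. At 24 h the corresponding values were 10.35, 10.34 and 10.23, and 10.97, 10.82 and 10.94. The separation at 24 h was large because the vehicle arrays were lower than at 4 h and the estrogen arrays higher, and it came to 0.60 ± 0.06 (adjusted p = 1.56e-06). With HER2 siRNA at 24 h FBL stood at 10.63, 10.64 and 10.60 with vehicle and at 10.91, 10.98 and 11.03 with estrogen. The vehicle arrays were thus higher than with control siRNA without overlap (0.32 ± 0.06, adjusted p = 0.00032), the opposite of the direction of most genes, and the estrogen arrays of the siRNAs overlapped (0.07, 95% interval -0.06 to 0.20).

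In the box H/ACA snoRNP, which pseudouridylates ribosomal RNA, 3 proteins had values. GAR1 fell by a small amount after HER2 siRNA averaged over conditions (-0.10 ± 0.04, adjusted p = 0.022), a call that was lost with the GAPDH covariate and with quantile normalisation. It rose with estrogen at 24 h by 0.33 ± 0.08 with control siRNA. NHP2 rose with estrogen at 24 h (0.36 ± 0.07 with control siRNA and 0.38 ± 0.07 with HER2 siRNA), and its averaged siRNA difference was -0.01 (95% interval -0.09 to 0.07).

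NOP10, the smallest protein of that particle, rose after HER2 siRNA and was not called with estrogen. With vehicle at 24 h it stood at 11.59, 11.36 and 11.39 with control siRNA and at 11.84, 11.68 and 11.63 with HER2 siRNA. In the presence of estrogen it stood at 11.53, 11.39 and 11.38 against 11.79, 11.85 and 11.74. The HER2 siRNA arrays were higher without overlap in both settings (0.27 ± 0.08 and 0.36 ± 0.08). Its estrogen difference at 24 h with control siRNA was -0.01 (95% interval -0.18 to 0.16).

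The small subunit processing genes encode parts of the processome that assembles on the precursor RNA, and 8 of 12 fell and 2 rose in the averaged siRNA comparison. The largest falls were in BYSL (-0.32 ± 0.04), a late assembly factor, and NOP14 (-0.32 ± 0.03), a processome scaffold protein. WDR3, IMP4, RRP12, DDX10, WDR43 and RRP9 fell by 0.12 to 0.25. The RRP9 call was lost on leaving out any of 15 arrays and the DDX10 call on leaving out any of 4. Averaging probe sets ended the siRNA calls of WDR3, DDX10 and RRP12, and the GAPDH covariate those of WDR43 and RRP12. The RRP12 difference became 0.041 with probe sets averaged, and 2 of its other probe sets were called higher. Of the same 12, 8 rose with estrogen at 24 h with control siRNA: BYSL, NOP14, WDR43, RRP9, IMP4, WDR3, HEATR1 and RCL1, by 0.35 to 0.65. The RCL1 call (adjusted p = 0.0498) was lost on leaving out any of 5 arrays and the IMP4 call on leaving out any of 2. With the probe sets of a gene averaged, those of WDR3 and HEATR1 were lost.

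BYSL with control siRNA at 4 h stood at 7.89, 7.85 and 7.64 with vehicle and at 8.26, 8.37 and 8.37 with estrogen. With HER2 siRNA at 4 h it stood at 7.53, 7.57 and 7.31 with vehicle and at 8.07, 7.90 and 7.88 with estrogen. Estrogen arrays were above vehicle arrays with both siRNAs at this early time (0.54 ± 0.09 and 0.48 ± 0.09), and HER2 siRNA arrays were below control siRNA arrays in both treatments.

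HEATR1, a large processome protein that is also needed for RNA polymerase I transcription, went up with both interventions. With vehicle at 4 h it stood at 8.86, 8.87 and 8.70 with control siRNA and at 9.19, 9.26 and 9.23 with HER2 siRNA. At 24 h with vehicle it stood at 8.84, 8.97 and 8.91 against 9.13, 9.20 and 9.19. The HER2 siRNA arrays were higher without overlap at both times (0.42 ± 0.07 and 0.27 ± 0.07). Estrogen at 24 h added 0.36 ± 0.07 with control siRNA and 0.27 ± 0.07 with HER2 siRNA. With its 5 probe sets averaged, the averaged siRNA difference of HEATR1 was still called (0.17). Its siRNA calls in the 24 h vehicle arrays and in the 4 h estrogen arrays were then lost, and so were both estrogen calls at 24 h. The estrogen call with HER2 siRNA was also lost in a fit of only the 2 groups and on leaving out any of 6 arrays. TBL3, another processome protein, rose in the averaged siRNA comparison and in no single condition, and its estrogen difference at 24 h with control siRNA was 0.01 (95% interval -0.22 to 0.23).

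PWP2 was called in no comparison, and DDX10 in the averaged siRNA comparison alone. The PWP2 differences were -0.05 (95% interval -0.14 to 0.04) for the averaged siRNA and 0.14 (95% interval -0.05 to 0.32) for estrogen at 24 h with control siRNA. The third array of DDX10 at 4 h was low in all 4 groups, at 8.51, 8.77, 8.45 and 8.26 where the other 4 h arrays stood between 8.86 and 9.07, and the intervals of its differences were the widest of the 35 genes.

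**Figure D2:**
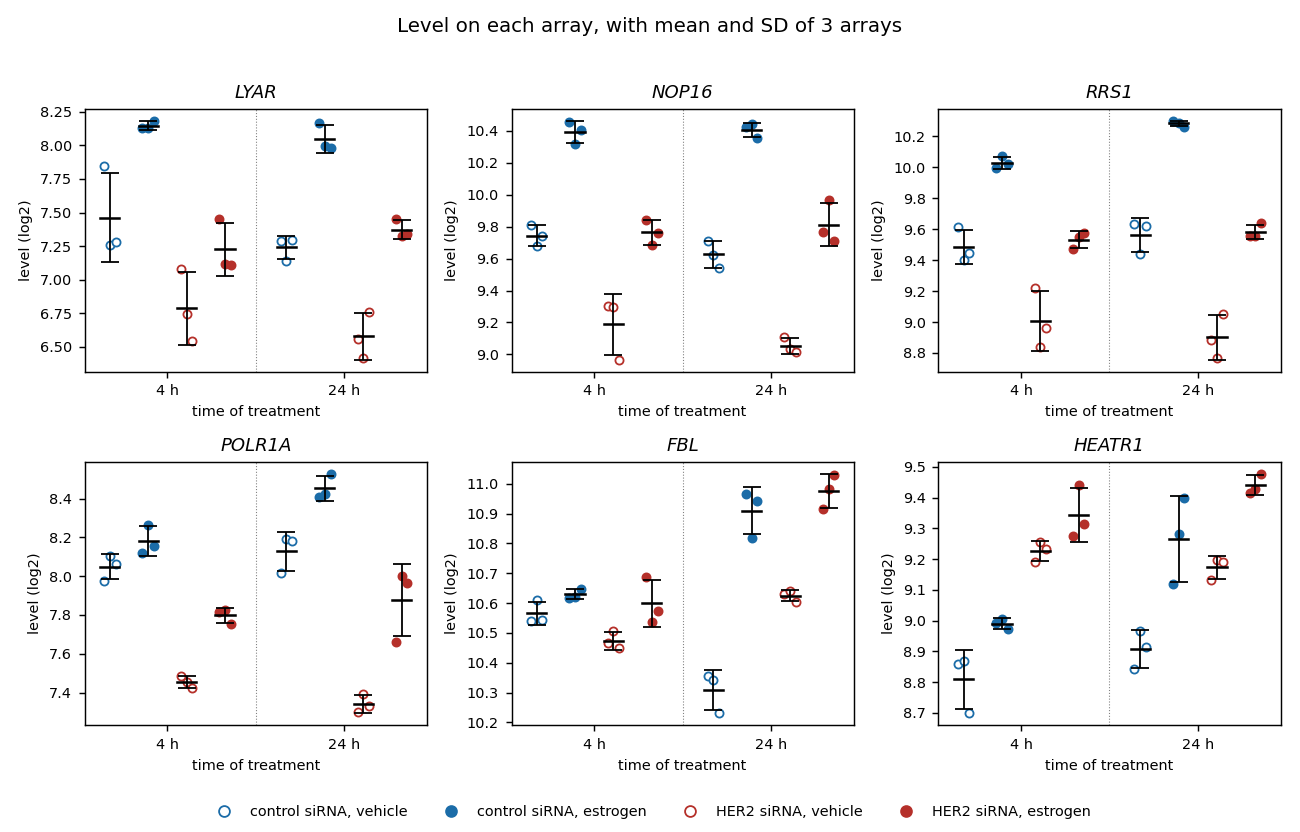
Level (log2) on each array for 6 genes, by time, siRNA (colour) and treatment (open points for vehicle, filled for estrogen), with the mean as a bar and the SD of 3 arrays as whiskers. LYAR, NOP16, RRS1 and POLR1A are lower with HER2 siRNA in both treatments, FBL separates by treatment at 24 h, and HEATR1 is higher with HER2 siRNA.

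Among the large subunit processing genes 8 of 9 fell and none rose in the averaged siRNA comparison, with a median of -0.43, and with estrogen at 24 h 7 of 9 rose with control siRNA, with a median of 0.61. NOP16, a nucleolar protein of the pre-60S particle, had the largest difference in both. With vehicle at 4 h it stood at 9.81, 9.68 and 9.74 with control siRNA and at 9.30, 9.30 and 8.97 with HER2 siRNA. With estrogen at 4 h it stood at 10.46, 10.32 and 10.40 against 9.84, 9.69 and 9.76.

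HER2 siRNA arrays of NOP16 with estrogen thus overlapped control siRNA arrays with vehicle at 4 h. They lay just above them at 24 h, with 9.71, 9.62 and 9.54 for control siRNA with vehicle, 10.42, 10.44 and 10.35 for control siRNA with estrogen, 9.11, 9.03 and 9.01 for HER2 siRNA with vehicle and 9.76, 9.96 and 9.71 for HER2 siRNA with estrogen. The siRNA difference was between -0.55 and -0.63 in the 4 conditions and the estrogen difference between 0.57 and 0.78 in its 4 comparisons.

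RRS1, which brings the 5S RNA particle to the early large subunit, had nearly the same course. With vehicle at 24 h it stood at 9.63, 9.44 and 9.62 with control siRNA and at 8.88, 8.77 and 9.05 with HER2 siRNA. Its estrogen arrays at 24 h stood at 10.30, 10.29 and 10.26 against 9.56, 9.55 and 9.64. All 4 groups were separate except that the control siRNA vehicle and HER2 siRNA estrogen arrays overlapped. The siRNA difference was -0.66 ± 0.09 with vehicle and -0.70 ± 0.09 with estrogen.

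NOP2, a ribosomal RNA cytosine methyltransferase, fell in all 4 conditions (-0.41 to -0.56). MRTO4, which holds the place of the P stalk protein on the pre-60S particle, and URB2, a pre-60S factor, fell in 3 of 4, all but vehicle at 4 h. NIP7, which helps mature the large subunit, and RRP1B, a nucleolar partner of the processing machinery, fell by 0.31 ± 0.07 and 0.20 ± 0.05 in the averaged comparison, both no longer called with the GAPDH covariate. RRP1B rose with estrogen at 24 h with control siRNA by 0.50 ± 0.10, and NIP7 was not called there (0.38, 95% interval 0.10 to 0.67). WDR12 and PES1 belong to the same complex, which also holds BOP1, and they differed in their calls. WDR12 fell by 0.18 ± 0.04 in the averaged siRNA comparison and rose with estrogen at 24 h by 0.63 ± 0.08, while PES1 was called in no comparison (averaged siRNA -0.06, 95% interval -0.16 to 0.04, and estrogen at 24 h 0.22, 95% interval 0.02 to 0.43). The difference between these 2 genes was not tested.

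Among the nucleolar organisers and helicases 4 of 5 fell after HER2 siRNA and 4 of 5 rose with estrogen at 24 h with control siRNA. LYAR, a nucleolar zinc finger protein linked to ribosomal DNA transcription, had the largest difference of the 35 genes in both. With vehicle at 24 h it stood at 7.29, 7.14 and 7.30 with control siRNA and at 6.56, 6.41 and 6.76 with HER2 siRNA. The estrogen arrays at 24 h stood at 8.17, 7.996 and 7.98 against 7.45, 7.33 and 7.34.

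At 4 h LYAR was less even among vehicle arrays, at 7.84, 7.26 and 7.28 with control siRNA and 7.08, 6.74 and 6.54 with HER2 siRNA. The first array of each was the highest, and the groups did not overlap. With estrogen at 4 h it stood at 8.13, 8.13 and 8.19 against 7.45, 7.12 and 7.11, a difference of -0.92 ± 0.14 that was the largest siRNA difference of any of the 35 genes in a single condition and left 52.8% of the control level.

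NOLC1, a chaperone of snoRNPs in the nucleolus, and the RNA helicase DDX21 fell in all 4 conditions, by 0.30 to 0.51 and by 0.30 to 0.48. NOLC1 with control siRNA stood at 9.94, 10.07 and 9.90 with vehicle and at 10.71, 10.69 and 10.69 with estrogen at 24 h, which was 0.73 ± 0.08 with no overlap. At 4 h the same groups stood at 10.15, 10.13 and 10.08 and at 10.26, 10.38 and 10.33, and that difference of 0.21 (95% interval 0.05 to 0.37) was not called.

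NCL (nucleolin) fell by 0.14 ± 0.04 in the averaged comparison and rose with estrogen at 24 h by 0.34 ± 0.08 with control siRNA, and both calls were lost when its 2 probe sets were averaged (adjusted p = 0.11 and 0.059). NPM1 (nucleophosmin), the brightest of the 35 genes at a mean of 13.65, is given here by its brightest probe set, from which its others differ as described with the probe sets. Its averaged siRNA difference of 0.08 ± 0.03 (adjusted p = 0.040) was lost on leaving out any of 13 arrays, and its estrogen difference at 24 h was 0.16 (95% interval 0.04 to 0.29), which was not called.

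**Figure D3:**
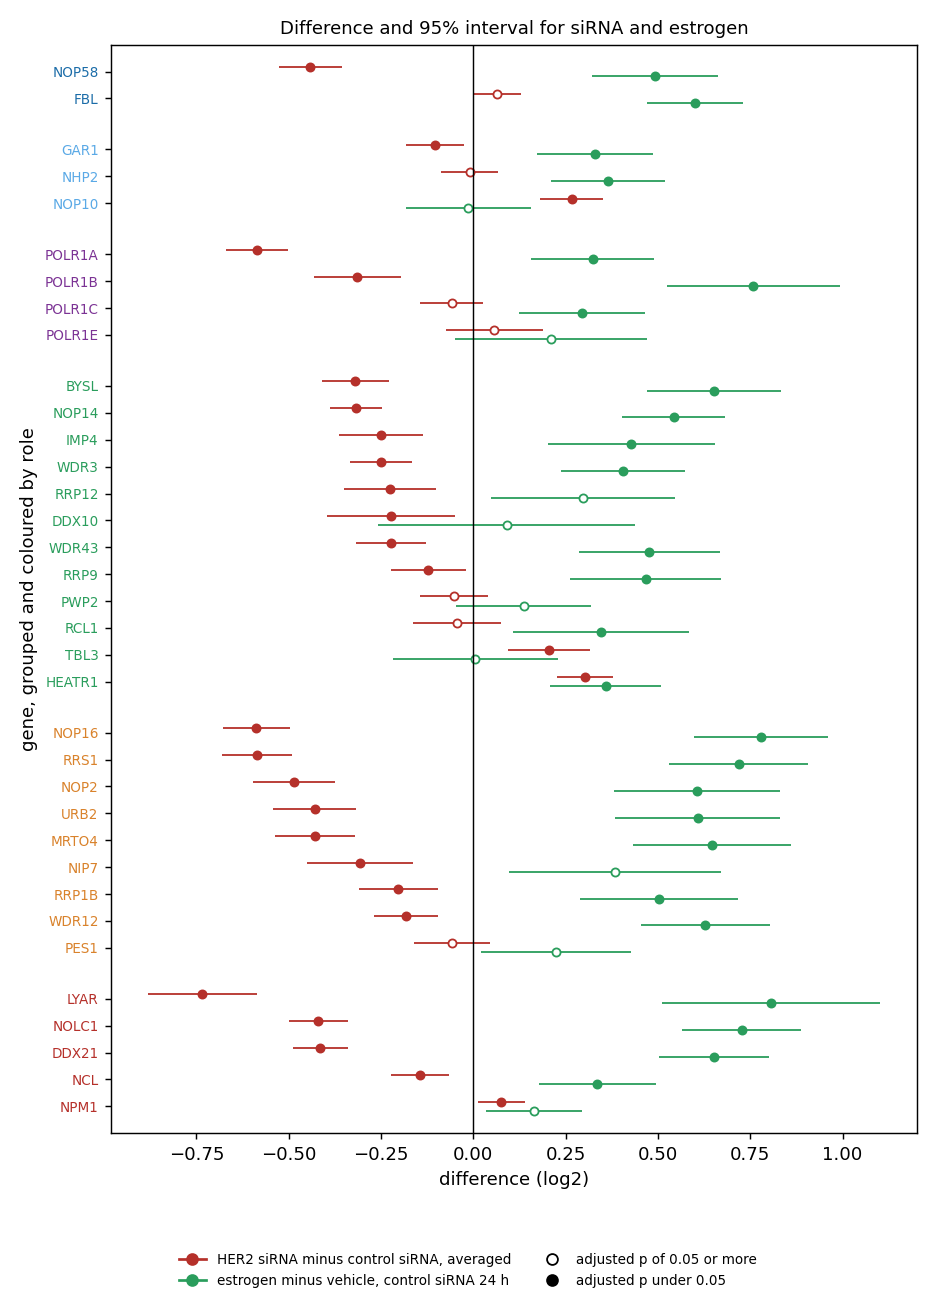
Difference (log2, points) with its 95% interval (lines) for each of the 35 genes, for HER2 siRNA against control siRNA averaged over 4 conditions (red) and for estrogen against vehicle with control siRNA at 24 h (green), with filled points for an adjusted p under 0.05. In 21 genes the red point is called below 0 and the green one above 0, LYAR lies farthest from 0 on both sides, and HEATR1 is called above 0 in both.

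The siRNA and estrogen effects were thus opposed in 21 of 35 genes, which fell in the averaged siRNA comparison and rose with estrogen at 24 h with control siRNA. Of all genes tested 4.58% did so. These comparisons share arrays, so the count was also taken where they share none, with the siRNA effect at one time and the estrogen effect at the other. Separate arrays do not undo the choice of the genes, which was made with earlier results of these data known. The counts therefore describe the chosen genes and are no independent support for the opposed effects. Of 12 genes that fell with vehicle at 4 h, 11 rose with estrogen at 24 h with control siRNA, which is 91.7% of the 12 and 42.3% of the 26 that rose. As a base, 74.3% of the 35 rose there, and 21.7% of all genes that fell with vehicle at 4 h did. Of 16 that fell with estrogen at 4 h, 15 rose at 24 h with HER2 siRNA, which is 93.8% of the 16 and 68.2% of the 22 that rose, where 62.9% of the 35 rose and 13.3% of all genes that fell did. In the other direction of time, 7 of the 8 that rose at 4 h with control siRNA fell with vehicle at 24 h, which is 87.5% of the 8 and 43.8% of the 16 that fell, where 45.7% of the 35 fell and 37.5% of all genes that rose at 4 h did.

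Across the 35 genes the siRNA difference with vehicle at 4 h and the estrogen difference at 24 h with control siRNA had a Pearson r of -0.65. This is a description over genes that share the arrays of each comparison and are not independent replicates.

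The estrogen effect was not called as different between the siRNAs for any of the 35 genes. At 4 h the difference of effects was called in 0 genes of 35, where 0% of all genes were higher and 0% lower, and 0 of the 35 had an unadjusted p under 0.05. At 24 h it was called in 0 of 35, where 0.0488% of all genes were higher and 0.0140% lower, and FBL alone had an unadjusted p under 0.05 (-0.25, smaller rise with HER2 siRNA). The 35 differences of effects ran from -0.28 to 0.22 at 4 h and from -0.26 to 0.21 at 24 h. Their 95% intervals had a median size of 0.26 to either side and reached -0.70 and 0.67 at the extremes, and differences inside these intervals cannot be told from 0 here.

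The estrogen effect grew between 4 and 24 h in 7 of 35 genes and shrank in 0, averaged over the siRNAs, where it was called higher in 2.11% of all genes and lower in 1.38%. These were NOLC1 (0.48 ± 0.08), NOP14 (0.41 ± 0.07), MRTO4 (0.41 ± 0.10), FBL (0.38 ± 0.06), WDR12 (0.36 ± 0.08), DDX21 (0.30 ± 0.07) and NHP2 (0.28 ± 0.07). Of the genes that rose already at 4 h with control siRNA only DDX21 is among them, and the change for NOP16 was 0.16 (95% interval -0.02 to 0.34) and for BYSL 0.13 (95% interval -0.05 to 0.31). The siRNA effect differed between the times in FBL (0.25 ± 0.06, adjusted p = 0.032), where 1.73% of all genes were called higher and 1.22% lower, and in 0 of the other 34 genes. The FBL call was lost without the filter on dim genes and on leaving out any of 11 arrays.

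Cells with HER2 siRNA and estrogen were also set against cells with control siRNA and vehicle at the same time, a comparison that is the sum of the 2 effects above and not independent of them. At 4 h 3 of 35 genes were higher and 2 lower, where 16.9% of all genes were higher and 16.0% lower, and the median difference was 0.04. HEATR1 (0.53 ± 0.07), NOP10 (0.29 ± 0.08) and POLR1C (0.23 ± 0.08) were higher, and NOLC1 (-0.30 ± 0.08) and POLR1A (-0.25 ± 0.08) lower. These 5 calls became 3 without the second control siRNA vehicle array, without the third HER2 siRNA estrogen array, and in a fit of only the 2 groups.

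At 24 h 10 were higher and 1 lower, where 18.9% of all genes were higher and 20.0% lower, and the median was 0.17. The 10 were FBL (0.67 ± 0.06), HEATR1 (0.53 ± 0.07), POLR1B (0.48 ± 0.11), WDR12 (0.39 ± 0.08), BYSL (0.35 ± 0.09), NOP10 (0.35 ± 0.08), NHP2 (0.34 ± 0.07), POLR1C (0.28 ± 0.08), NOLC1 (0.26 ± 0.08) and NPM1 (0.23 ± 0.06). POLR1A was lower at both times (-0.25 ± 0.08 at 24 h), and NOLC1 was lower at 4 h and higher at 24 h. The NOLC1 call at 24 h was lost with its probe sets averaged and in a fit of only the 2 groups. It was also lost on leaving out either of 2 arrays. At each time the POLR1A call was lost in a fit of only the 2 groups and on leaving out any of 3 arrays. Of the 5 largest averaged siRNA falls, that of POLR1A was thus still called at 24 h. For the other 4 no difference was called: RRS1 differed by 0.02 (95% interval -0.17 to 0.21), NOP2 by 0.09 (95% interval -0.13 to 0.32), NOP16 by 0.19 (95% interval 0.01 to 0.37) and LYAR by 0.13 (95% interval -0.16 to 0.43).

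**Figure D4:**
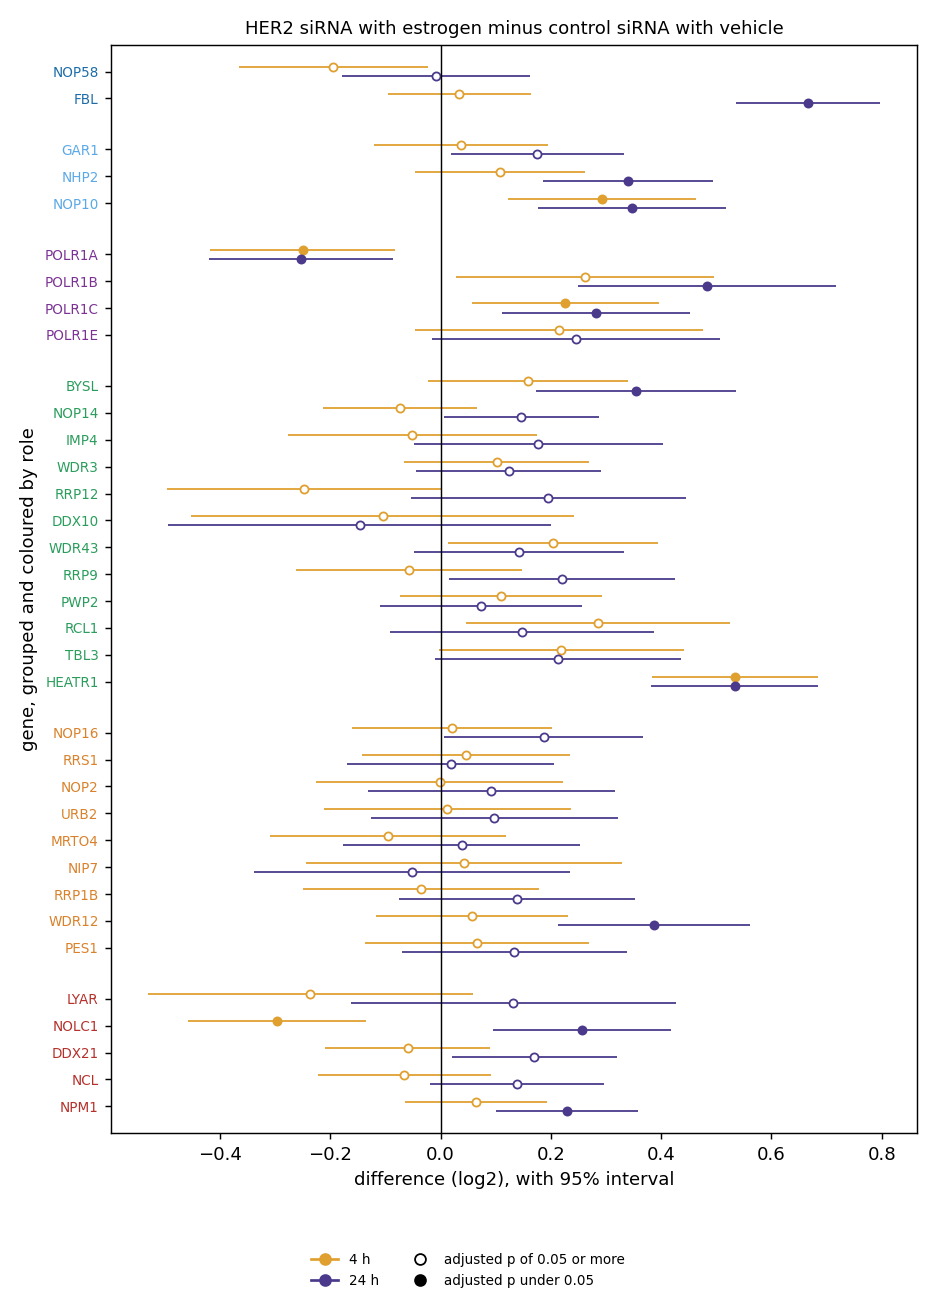
Difference (log2, points) with its 95% interval (lines) between HER2 siRNA with estrogen and control siRNA with vehicle for each of the 35 genes at 4 h (yellow) and 24 h (purple), with filled points for an adjusted p under 0.05. At 24 h FBL, HEATR1 and POLR1B lie highest and POLR1A is called below 0, while the large subunit genes other than WDR12 are not called at either time.

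The middle gene of each array gives the groups in 1 value. The median deviation of the 35 genes from their own means was -0.04 ± 0.04 (SD, n = 3) with control siRNA and vehicle, 0.21 ± 0.04 with control siRNA and estrogen, -0.24 ± 0.07 with HER2 siRNA and vehicle and 0.01 ± 0.07 with HER2 siRNA and estrogen at 4 h. At 24 h these were -0.10 ± 0.02, 0.34 ± 0.03, -0.29 ± 0.04 and 0.08 ± 0.04.

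Of 98 other ribosome biogenesis genes, a list of factors outside the 40, 44 (44.9%) fell and 23 (23.5%) rose in the averaged siRNA comparison, with a median of -0.10, where 29.1% of all genes fell and 30.1% rose. RSL1D1, a nucleolar regulator of ribosome assembly, rose by 0.74 ± 0.04, and RRP36 and PA2G4 fell by 0.68 ± 0.04 and 0.63 ± 0.04. Of the 98, 33 rose with estrogen at 24 h with control siRNA and 1 fell (median 0.19), where 7.01% of all genes rose and 6.52% fell. Among them were the helicase RUVBL1 (0.69 ± 0.09) and NOC3L (0.73 ± 0.10), while NVL fell by 0.56 ± 0.09. The other RNA polymerase I machinery (20 genes, with the remaining subunits and initiation factors) had 7 genes (35%) lower and 9 (45%) higher after HER2 siRNA, beside the same shares of all genes. TAF1B, a subunit of the selectivity factor SL1, fell by 0.63 ± 0.04, POLR2L, a subunit common to all nuclear RNA polymerases, fell by 0.43 ± 0.03, and POLR1D rose by 0.58 ± 0.04. In the estrogen comparison at 24 h 3 of the 20 rose: POLR1G (0.59 ± 0.11), POLR2H (0.37 ± 0.07) and TCOF1 (0.35 ± 0.09).

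The cytosolic ribosomal proteins, which are the parts being assembled, mostly rose after HER2 siRNA. Of 53 with a probe set of their own 46 rose and 1 fell (RPL27A, -0.19 ± 0.06) in the averaged comparison, where 30.1% of all genes rose and 29.1% fell. The median was 0.17, with the smallest adjusted p in RPL18 (0.43 ± 0.03), RPL14 (0.46 ± 0.03) and RPL34 (0.45 ± 0.04). Estrogen at 24 h with control siRNA raised 8 of 53, among them RPL29 (0.23 ± 0.06), RPS6 (0.24 ± 0.06) and RPS12 (0.20 ± 0.06), and none fell, where 7.01% of all genes rose. Probe sets of ribosomal proteins can also match RNA of the many copies of these genes, and 26 of the 79 on the list have no probe set to themselves here. The shift in this list accompanies the same difference in GAPDH 3′ to 5′ values between the siRNAs, and its part in the result was not tested.

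MYC, whose product is known to activate many ribosome biogenesis genes, rose with estrogen in all 4 comparisons. With control siRNA at 24 h it stood at 7.23, 7.07 and 6.72 with vehicle and at 9.72, 10.09 and 9.98 with estrogen. With HER2 siRNA it stood at 7.04, 6.86 and 6.61 with vehicle and at 10.37, 10.79 and 10.88 with estrogen. Every estrogen array was above every vehicle array, by 2.93 ± 0.24 with control siRNA and 3.84 ± 0.24 with HER2 siRNA. The averaged siRNA difference of MYC was 0.25 (95% interval -0.00034 to 0.50) and did not pass the test. Of the 7 tested genes of MYC and its partners 4 were higher and 2 lower in the averaged siRNA comparison. Of all genes tested 30.1% were higher there and 29.1% lower. MXI1, an antagonist of MYC, rose after HER2 siRNA by 1.60 ± 0.07, and MXD1 and MXD3, of the same antagonist family, fell by 1.13 ± 0.07 and 0.38 ± 0.05.

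**Figure D5:**
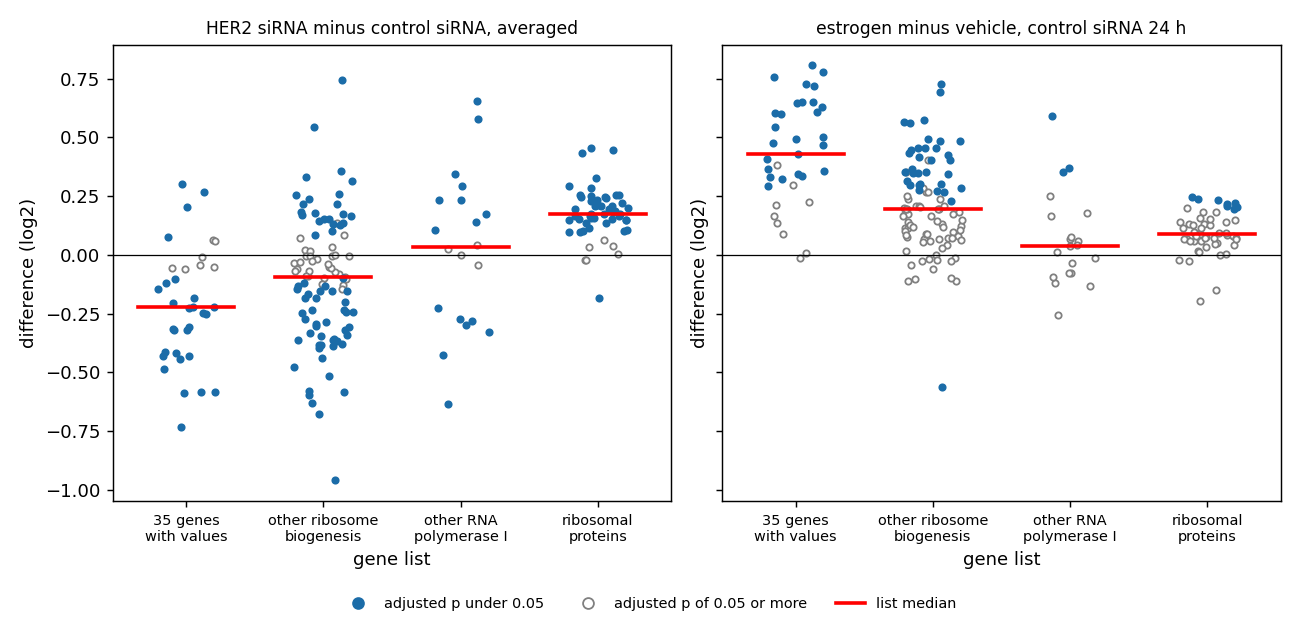
Difference (log2) of each tested gene in 4 lists (35 genes described here, 98 other ribosome biogenesis genes, 20 other RNA polymerase I genes, 53 cytosolic ribosomal proteins) after HER2 siRNA averaged over 4 conditions (left) and with estrogen at 24 h with control siRNA (right), with blue points for an adjusted p under 0.05 and red lines for list medians. The medians on the left are -0.22, -0.10, 0.03 and 0.17, and on the right 0.43, 0.19, 0.04 and 0.09.

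Some genes have more than 1 probe set, and 3 of the 16 with several tested disagreed in direction with a call in the averaged siRNA comparison when each probe set was tested as a feature of its own. For POLR1B a dimmer probe set rose by 0.30 ± 0.07 where the brightest fell by 0.31 ± 0.06. For RRP12 dim probe sets rose by 0.23 ± 0.10 and 0.16 ± 0.06 where the brightest fell by 0.23 ± 0.06. For NPM1 another probe set fell by 0.24 ± 0.05, and its other probe sets rose with estrogen at 24 h with control siRNA by 0.46 ± 0.07 and 0.55 ± 0.10, where the brightest was not called. For NOP16 a probe set fell by 0.57 ± 0.07 beside the 0.59 ± 0.04 of the brightest, and the other 2, both near the filter, did not pass the test. In the averaged siRNA comparison LYAR, POLR1A, DDX21, MRTO4, NOLC1, NIP7, WDR12 and HEATR1 had at least 1 further probe set called in the same direction. When all probe sets of a gene were averaged, dim ones included, the averaged siRNA calls of DDX10, NCL, NPM1, POLR1B, RRP12, RRP1B, TBL3 and WDR3 were lost, and so were the estrogen calls at 24 h with control siRNA of HEATR1, NCL, POLR1A and WDR3.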

How the data were processed

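RNA of BT-474 cells was biotin labelled from the 3′ end by in vitro transcription and read on 24 arrays, per the labels' protocols. The authors deposited log2 values, 1 per probe set and array, made by RMA, per the submitters' processing notes; its version and background step are not given in the sources used here. Precision is limited by the number of arrays. HER2 siRNA estrogen replicate 3 at 4 h has a source name that reads 24 h, against its 3 other label fields.

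Symbols from the platform annotation were updated through Entrez identifiers. Genes entered the test with a level of 5 or more (log2) in 3 or more arrays. In limma 3.58.1 (R 4.3.3) one mean per group was fitted over the 24 arrays (prior degrees of freedom 4.92), with Benjamini-Hochberg adjustment over 14335 genes in each of 15 comparisons. The fit was tested on simulated data.

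The members and the lists were chosen with earlier results of these data known. Named were the 10 largest called differences in the averaged siRNA comparison and in estrogen at 4 and 24 h with control siRNA, members called against most, members never called in single comparisons, the extremes of each role, and 3 genes of each other list with the smallest adjusted p. Alternatives were no filter, a level of 7, the mean of probe sets, equal medians, quantile normalisation, array weights, a trended robust prior, the GAPDH covariate, only the groups compared, the replicate block, 3 arrays whose labels carry numbers apart from the rest left out, and each array left out. Figures were drawn in Python 3.11.15 with matplotlib 3.10.9.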

Additional observations from a re-analysis of the deposited data

Results flagged for a closer look

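Effects that differed between groups by the fit's own test were of 1 kind among these genes, a difference between 4 and 24 h. The estrogen effect, averaged over the siRNAs, was larger at 24 h than at 4 h in NOLC1 by 0.48 (adjusted p = 0.00083), in NOP14 by 0.41 (adjusted p = 0.0010), in FBL by 0.38 (adjusted p = 0.0010), in WDR12 by 0.36 (adjusted p = 0.016), in DDX21 by 0.30 (adjusted p = 0.020), in MRTO4 by 0.41 (adjusted p = 0.029) and in NHP2 by 0.28 (adjusted p = 0.041). The HER2 siRNA effect on FBL, averaged over the treatments, was higher at 24 h than at 4 h by 0.25 (adjusted p = 0.032). Leaving out single arrays ended the NHP2 call for 16 arrays, the FBL siRNA call for 11 and the MRTO4 call for 7. The NHP2 and MRTO4 calls also ended with the GAPDH covariate, and the WDR12 call with averaged probe sets. No difference of the estrogen effect between the siRNAs was called. Groups of 3 arrays are too small for a search for single outlying arrays.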

How the results depend on the processing

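Counts of genes called stayed within 1.5 times the reported count except as follows. In a fit of only the groups compared, HER2 siRNA with vehicle at 4 h called 8 genes in place of 13, estrogen with control siRNA at 4 h 3 in place of 8, estrogen with HER2 siRNA 0 in place of 4 at 4 h and 14 in place of 22 at 24 h, and HER2 siRNA estrogen against control siRNA vehicle at 4 h 3 in place of 5. With probe sets of a gene averaged, estrogen with HER2 siRNA at 4 h called 2. Without the filter on dim genes, the difference of siRNA effects between times called 0 in place of 1. Leaving out single arrays gave 3 to 8 for estrogen with control siRNA at 4 h, 2 to 4 with HER2 siRNA at 4 h, 0 to 1 for the difference of siRNA effects between times and 3 to 7 for HER2 siRNA estrogen against control siRNA vehicle at 4 h. The count of 8 fell to 5 without control siRNA vehicle replicate 2, to 3 without replicate 3, and to 4 without estrogen replicate 2 or 3; that of 4 fell to 2 without HER2 siRNA vehicle replicate 3. The mean of probe sets turned the averaged siRNA difference of NPM1 to -0.033 and of RRP12 to 0.041, and the RRP12 siRNA differences at 4 h to 0.0083 with vehicle and 0.047 with estrogen. Beyond these, 0 of 182 called differences changed sign under an alternative. With the replicate block all 182 remained called and 14 were added, and the averaged siRNA comparison called 28. Deviations of arrays with equal replicate numbers correlated above 0 in 23 of 24 pairs, and all 3 pairs were above 0.1 in 3 of 4 siRNA and 1 of 4 estrogen comparisons, so arrays of 1 number share variation in part. The labels do not say that a number marks a batch, and no count of calls moved by over 1.5 times with the block. The cause of these changes was not tested, apart from smaller fits having fewer arrays.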
